A study of Mus musculus with 6 samples.

Results

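R-spondins and secreted WNT inhibitors are extracellular proteins that raise or lower the response of cells to WNT ligands. The genes described here were chosen by gene symbol and are 10 of the 20327 symbols counted in each library. They comprise 3 R-spondins (*Rspo1*, *Rspo2* and *Rspo3*) and 7 inhibitors (*Sfrp1*, *Sfrp2*, *Frzb*, *Sfrp4*, *Wif1*, *Dkk2* and *Dkk3*).

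The study compared stromal cells that express the reporter of interleukin 11 with stromal cells that do not, in the inflamed colon. Both groups came from C57BL/6 mice of 9 to 15 weeks with the genotype Il11-Egfp, a bacterial artificial chromosome transgene that places *Egfp* under the *Il11* promoter, kept as a single selected line. All mice had drunk 1.5% dextran sulfate sodium (DSS), which injures the colonic epithelium, for 5 days before plain water, and colons were taken on day 7. Cells negative for Ter119, CD45, CD31, EpCAM and the dye DAPI were enriched with magnetic beads and sorted into EGFP-Positive (IL-11+) and EGFP-Negative (IL-11-) fibroblasts, with 3 libraries in each group. The paper puts the purity of the sorted EGFP-Positive cells at less than complete. EGFP reports the activity of the transgene and not IL-11 protein, and no library from mice without DSS is part of the comparison. PolyA RNA was read from the 5′ side of transcripts (5′Tag-seq), and the values are tags per gene. The libraries held 1057170, 1078179 and 1169817 tags in EGFP-Negative replicates 1, 2 and 3, and 1046538, 1022851 and 1049048 tags in EGFP-Positive replicates 1, 2 and 3. Values by library are given in this order throughout. Levels are given as normalized CPM, which are tags relative to the TMM-scaled sum of the tested genes in that library.

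WNT ligands bind Frizzled receptors together with LRP5 or LRP6 and stabilize β-catenin, which switches on target genes with TCF/LEF factors. R-spondins bind LGR4, LGR5 or LGR6 and keep the ubiquitin ligases RNF43 and ZNRF3 from removing Frizzled receptors, so that WNT signals last longer. SFRP proteins, FRZB and WIF1 bind WNT ligands outside the cell, whereas DKK proteins of the classical type bind LRP receptors. In the gut, mesenchymal cells around the crypts are a known source of R-spondins and WNT inhibitors for the epithelium.

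Both groups carried the RNA of fibroblasts. All 9 fibroblast markers were tested, and their summed level was 22120, 22110 and 24640 normalized CPM in the EGFP-Negative libraries and 42230, 33960 and 30310 in the EGFP-Positive libraries. The most abundant of them was *Dcn*, which encodes the matrix proteoglycan decorin, and 2 of the 9 were called higher and 0 lower in IL-11+ fibroblasts. By comparison, 3.44% of all tested genes were called higher and 6.37% lower. Markers of the lineages that the sort removes were low. The 4 endothelial markers with a value summed to 0 to 12 tags per library and the 5 epithelial markers to 0 to 14 tags. The 7 immune markers summed to 9 to 46 tags per library, and the sums of the groups overlapped. *Cd74*, the most abundant and the 1 tested, was called lower in IL-11+ fibroblasts by edgeR and not by DESeq2. *S100a8*, named after its values were seen, had 2, 4 and 2 tags in the EGFP-Negative and 13, 1 and 12 tags in the EGFP-Positive libraries. *Emcn* and *Krt8* led the other lists, and *Pecam1*, *Lyve1*, *Emcn*, *Krt20* and *Cd3e* had 0 tags in every EGFP-Positive library.

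Of the 7 inhibitors, *Sfrp1*, *Frzb* and *Wif1* were called higher in IL-11+ fibroblasts, *Sfrp4* was called lower and 3 were not called. The call of *Sfrp4* was lost with DESeq2 (-1.57) and when any 1 of 4 libraries was left out (-1.07 to -1.58). The R-spondins that could be tested did not pass the threshold. Calls needed a Benjamini-Hochberg adjusted p below 0.05 in the edgeR quasi-likelihood test together with a fold change above 2. Of the 10 genes, 9 reached 10 tags in 3 or more of the 6 libraries and were tested, and *Rspo2* was not. Of these 9 genes, 3 were called higher and 1 was called lower, where 3.44% of the 9334 tested genes were called higher and 6.37% were called lower. With the replicate number as a block, 4 were called higher and 1 lower, against 3.61% and 6.94% of all tested genes. For 5 of the 9, all libraries of a group lay above all of the other, which held for 31.2% of all tested genes. The median log2 fold change of the 9 was 0.21, the value of *Rspo1*, and that of all tested genes was -0.01. Without EGFP-Positive replicate 2 the median of the 9 was -0.07 and without EGFP-Positive replicate 3 it was -0.38, so its sign rests on single libraries. In bulk libraries, fewer cells that express a gene and less RNA per cell cannot be told apart. When EGFP-Negative replicate 1 or EGFP-Positive replicate 2 was left out, 1 of the 9 genes, *Frzb*, was called higher.

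**Figure D1:**
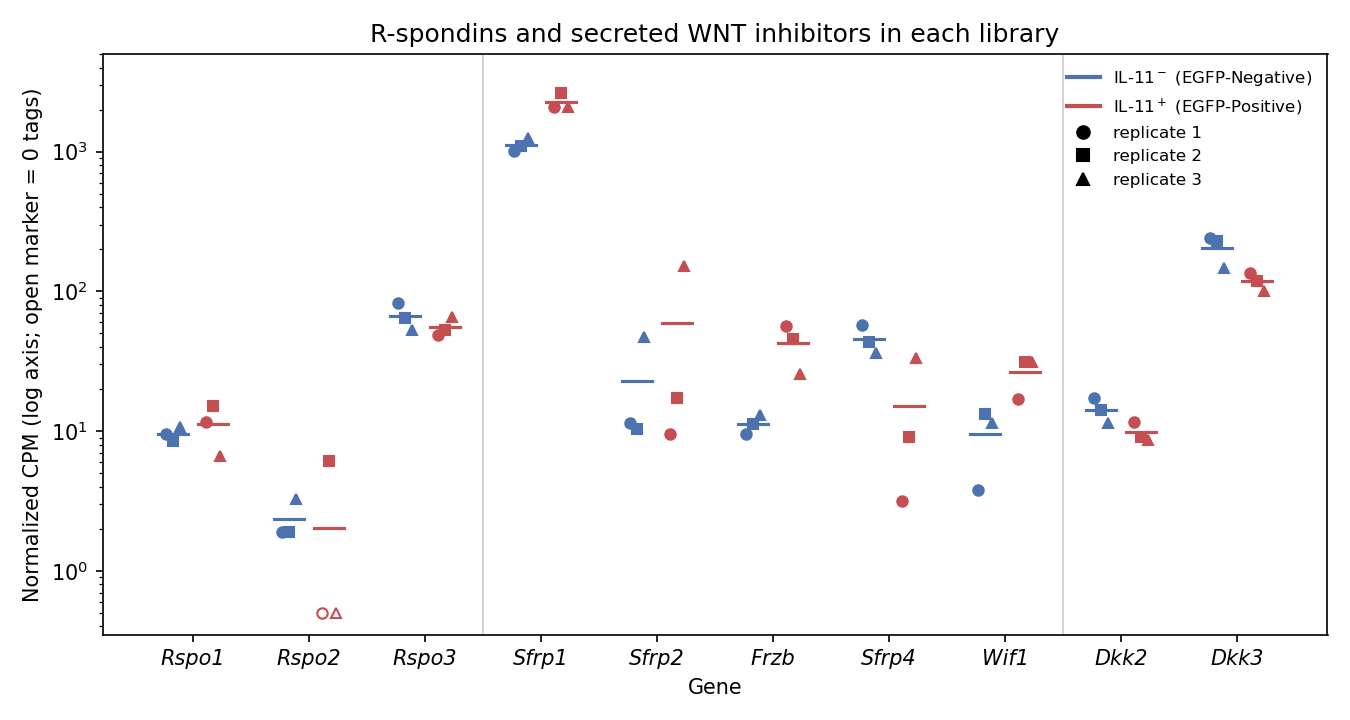
Normalized CPM of each of the 10 genes in each library on a log axis, with EGFP-Negative libraries in blue and EGFP-Positive libraries in red, a symbol for each replicate and a line at the mean of 3 libraries. Open symbols mark 0 tags. The EGFP-Positive libraries lie above all EGFP-Negative libraries for *Sfrp1*, *Frzb* and *Wif1* and below them for *Sfrp4* and *Dkk3*.

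*Rspo3*, the R-spondin with the most tags, encodes a secreted WNT agonist that stromal cells supply to crypt stem cells. It had 86, 68 and 65 tags in the EGFP-Negative libraries and 46, 52 and 69 tags in the EGFP-Positive libraries. The groups overlapped, since EGFP-Positive replicate 3 stood above EGFP-Negative replicates 2 and 3 after scaling. Group means (SD, n = 3) were 66.5 ± 14.5 normalized CPM without and 55.8 ± 8.91 with EGFP. The log2 fold change of IL-11+ over IL-11- fibroblasts was -0.24 (95% interval -0.695 to 0.21, Benjamini-Hochberg adjusted p = 0.518, edgeR quasi-likelihood test). The interval excludes a 2-fold change in either direction. Leaving out 1 library gave -0.067 to -0.40, always below 0. *Rspo3* is located at chr10:29452416-29535867 on the minus strand (GRCm38).

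*Rspo1*, a further agonist of the family, was counted at a low level in both groups. Its tags numbered 10, 9 and 13 in the EGFP-Negative and 11, 15 and 7 in the EGFP-Positive libraries. The lowest and the highest of the 6 values both belonged to EGFP-Positive libraries. This gave a log2 fold change of 0.21 (SE 0.414), with a 95% interval of -0.66 to 1.08 that includes a 2-fold higher level. *Rspo2* had 2, 2 and 4 tags in the EGFP-Negative libraries and 0, 6 and 0 tags in the EGFP-Positive libraries. A count of 0 allows up to 3 tags, so no difference was detectable for *Rspo2* at this depth. *Rspo1* is located at chr4:124986430-125009099 (plus strand) and *Rspo2* at chr15:43020794-43170826 (minus strand). *Rspo4* had no value under that symbol and was not analysed here. Of the R-spondins, 0 of the 2 tested were called by edgeR, 0 had an unadjusted p under 0.05 and 0 were called by DESeq2. Of all 9334 tested genes, 2490 had an unadjusted p under 0.05 in edgeR.

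*Sfrp1* encodes a secreted Frizzled-related protein, which carries a Frizzled-like domain that binds WNT ligands. It had 1063, 1160 and 1521 tags in the EGFP-Negative libraries and 1954, 2569 and 2200 tags in the EGFP-Positive libraries. Each EGFP-Positive library was above each EGFP-Negative library. Group means (SD, n = 3) were 1119 ± 119 normalized CPM without and 2259 ± 303 with EGFP. This is a log2 fold change of 1.01 (SE 0.174, Benjamini-Hochberg adjusted p = 0.00041, edgeR quasi-likelihood test). *Sfrp1* therefore stood just above the fold-change threshold, and its 95% interval ran from 0.65 to 1.38. It lost its call by falling under a 2-fold change with scaling by library size only (0.93) and without EGFP-Negative replicate 1 (0.93), EGFP-Negative replicate 2 (0.99) or EGFP-Positive replicate 2 (0.90). On the genes that pass the filter with all 6 libraries, *Sfrp1* was called without EGFP-Negative replicate 2 (1.0054). *Sfrp1* is located at chr8:23411502-23449632 on the plus strand (GRCm38).

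*Frzb*, also known as a secreted Frizzled-related protein and first described in cartilage, had the highest fold change of the 9 tested genes. It had 10, 12 and 16 tags in the EGFP-Negative libraries and 53, 45 and 27 tags in the EGFP-Positive libraries. The groups were fully apart, with EGFP-Positive replicate 3 the nearest to the EGFP-Negative libraries. Group means (SD, n = 3) were 11.3 ± 1.79 normalized CPM without and 42.5 ± 15.5 with EGFP. The resulting log2 fold change was 1.88 (SE 0.332, Benjamini-Hochberg adjusted p = 0.000527, edgeR quasi-likelihood test). *Frzb* was called higher in all 22 alternative analyses, which overlap and of which 1 was chosen after seeing the data. The log2 fold changes of *Frzb* were 1.64 to 2.28. It is located at chr2:80411970-80447625 on the minus strand (GRCm38).

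*Wif1* encodes WNT inhibitory factor 1, which binds WNT ligands through a domain unlike that of the SFRP proteins. It had 4, 14 and 14 tags in the EGFP-Negative libraries and 16, 31 and 33 tags in the EGFP-Positive libraries. Replicate 1 was the lowest library of each group, and the groups did not overlap. Group means (SD, n = 3) were 9.50 ± 4.99 normalized CPM without and 26.6 ± 8.38 with EGFP. The log2 fold change was 1.47 (SE 0.393, Benjamini-Hochberg adjusted p = 0.0146, edgeR quasi-likelihood test). The call of *Wif1* was lost without EGFP-Negative replicate 1 (log2 fold change 1.09), EGFP-Positive replicate 2 (1.34), EGFP-Positive replicate 3 (1.33) or both libraries numbered 3 (1.50), the last an alternative chosen after seeing the data. The direction was kept in each. *Wif1* is located at chr10:121033960-121100650 on the plus strand (GRCm38).

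*Sfrp4*, an SFRP family member, was the 1 inhibitor of the 7 that was called lower in IL-11+ fibroblasts. It had 60, 46 and 44 tags in the EGFP-Negative libraries and 3, 9 and 35 tags in the EGFP-Positive libraries. EGFP-Positive replicates 1 and 2 were far below the EGFP-Negative libraries, whereas EGFP-Positive replicate 3, at 33.4 normalized CPM, was close to EGFP-Negative replicate 3 at 36.1. Group means (SD, n = 3) were 45.6 ± 10.8 normalized CPM without and 15.2 ± 16 with EGFP. This gave a log2 fold change of -1.53 (SE 0.441, Benjamini-Hochberg adjusted p = 0.0226, edgeR quasi-likelihood test). Without EGFP-Positive replicate 3 it was -2.84, and without both libraries numbered 3, an alternative chosen after seeing the data, -2.99. In both fits the EGFP-Positive libraries left had 3 and 9 tags, the lower at the floor of 3 tags. In the fit without EGFP-Positive replicate 3 alone, *Sfrp4* reached 10 tags in the EGFP-Negative libraries only. It thus entered that fit through the group where it was high, and the sizes of these larger changes rest on few tags. The call of *Sfrp4* was lost with DESeq2 (log2 fold change -1.57) and without EGFP-Negative replicate 1 (-1.36), EGFP-Negative replicate 2 (-1.58), EGFP-Positive replicate 1 (-1.07) or EGFP-Positive replicate 2 (-1.26). *Sfrp4* is located at chr13:19623104-19632994 on the plus strand (GRCm38).

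For *Sfrp2*, another WNT-binding SFRP, replicate 3 stood apart in both groups. It had 12, 11 and 57 tags in the EGFP-Negative libraries and 9, 17 and 159 tags in the EGFP-Positive libraries. Replicate 3 was the highest library of both groups, and the remaining libraries overlapped. The resulting log2 fold change was 1.36 (SE 0.686, Benjamini-Hochberg adjusted p = 0.219, edgeR quasi-likelihood test). With the replicate number as a block it was 1.178 (SE 0.287), and *Sfrp2* was called higher (adjusted p = 0.00153 from the same test, within a range of 2.88e-06 to 0.753 over all alternatives). Without EGFP-Positive replicate 3 the log2 fold change was -0.80, and without both libraries numbered 3 it was 0.30. With no filter on low genes, *Sfrp2* was also called (1.39). *Sfrp2* is located at chr3:83766321-83774316 on the plus strand (GRCm38).

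*Sfrp5*, the remaining gene of the SFRP family, was not tested. It had 8, 5 and 1 tags in the EGFP-Negative libraries and 0 tags in each EGFP-Positive library. EGFP-Negative replicate 3 was itself under the floor of 3 tags per library, and no fold change is given for *Sfrp5*.

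The DKK genes had estimates below 0 and were not called. *Dkk3* encodes a divergent member of the family, for which a role in the WNT pathway is less settled than for the classical members. It had 254, 243 and 179 tags in the EGFP-Negative libraries and 128, 116 and 106 tags in the EGFP-Positive libraries. Every EGFP-Positive library was below every EGFP-Negative library. Group means (SD, n = 3) were 206 ± 51.7 normalized CPM without and 118 ± 17.3 with EGFP, and the difference had a Benjamini-Hochberg adjusted p of 0.00875 in the edgeR quasi-likelihood test. The log2 fold change was -0.80 (SE 0.199), short of the 2-fold threshold, with a 95% interval of -1.22 to -0.38. Without EGFP-Negative replicate 3 it was -1.02, and *Dkk3* was then called lower, but not on the genes that pass the filter with all 6 libraries (-0.998). *Dkk3* is located at chr7:112116017-112159057 on the minus strand (GRCm38).

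*Dkk2*, a classical LRP-binding member, had 18, 15 and 14 tags in the EGFP-Negative libraries and 11, 9 and 9 tags in the EGFP-Positive libraries. The groups touched, since EGFP-Positive replicate 1 stood above EGFP-Negative replicate 3 after scaling. This gave a log2 fold change of -0.53 (SE 0.376, 95% interval -1.32 to 0.26). *Dkk2* is located at chr3:132085292-132180304 (plus strand). *Dkk1*, *Dkk4*, *Dkkl1* and *Sost* had no value under these symbols and were not analysed here.

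Of the other secreted antagonists, *Draxin* and *Igfbp4* were higher in IL-11+ fibroblasts. *Draxin*, an axon guidance protein that also binds LRP6, had 13, 1 and 2 tags in the EGFP-Negative and 26, 31 and 14 tags in the EGFP-Positive libraries. The log2 fold change of *Draxin* was 2.28 (SE 0.57), and EGFP-Negative replicate 1 stood close to EGFP-Positive replicate 3. Without EGFP-Negative replicate 1 the EGFP-Negative libraries had 1 and 2 tags, under the floor of 3 tags, and no fold change is given. The call was lost without EGFP-Negative replicate 2 (1.81) and with DESeq2 (2.30). On the genes that pass the filter with all 6 libraries, it was also lost without EGFP-Positive replicate 2 (2.04). *Igfbp4*, an IGF-binding protein that can also act on Frizzled and LRP6, had 391, 467 and 675 tags in the EGFP-Negative and 1028, 1471 and 1749 tags in the EGFP-Positive libraries. The groups were widely separated, at 456 ± 91.5 and 1417 ± 297 normalized CPM (SD, n = 3). Its log2 fold change was 1.64 (SE 0.199, Benjamini-Hochberg adjusted p = 1.11e-05, edgeR quasi-likelihood test). *Sostdc1*, a secreted antagonist of WNT and BMP signals, had 16, 6 and 9 tags in the EGFP-Negative and 0, 0 and 3 tags in the EGFP-Positive libraries and was not tested. Each EGFP-Positive library was below each EGFP-Negative library for *Sostdc1*. *Notum*, a secreted enzyme that removes the lipid of WNT ligands, had at most 2 tags in any library.

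By list, 3 of 5 tested WNT-binding inhibitors were called higher and 1 lower. Their median log2 fold change of 1.36 was the value of *Sfrp2*, which was not called and turned to -0.80 without EGFP-Positive replicate 3. In the list of DKK and other LRP-binding inhibitors, 1 of 3 tested genes was called higher, and the median was -0.53, the value of *Dkk2*. Of the other inhibitors at the cell surface, 1 of 4 was called higher, with a median of -0.0037. Of all tested genes, 3.44% were called higher and 6.37% lower with a median of -0.01, and no test was made of these lists.

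Of the R-spondin receptors, ligases and related surface proteins, 3 were tested, and *Gpc3* was the one called. *Lgr4*, the R-spondin receptor with the widest known expression, had 30, 22 and 12 tags in the EGFP-Negative libraries and 13, 4 and 6 tags in the EGFP-Positive libraries. The groups overlapped in EGFP-Negative replicate 3 and EGFP-Positive replicate 1. The log2 fold change of *Lgr4* was -1.32 (SE 0.476, Benjamini-Hochberg adjusted p = 0.0717, edgeR quasi-likelihood test). With the replicate block *Lgr4* was called lower (-1.32, adjusted p = 0.0165 from the same test, within a range of 0.0165 to 0.314 over all alternatives). It was also called lower without EGFP-Negative replicate 3 (-1.67) or EGFP-Positive replicate 1 (-1.95), with the exact test (-1.32) and with no filter (-1.28). In the fit without EGFP-Positive replicate 1, *Lgr4* reached 10 tags in the EGFP-Negative libraries only. The estimate was nearer 0 without EGFP-Negative replicate 1 (-0.97), EGFP-Positive replicate 2 (-1.004) or EGFP-Positive replicate 3 (-1.12). *Lgr5* had 1 to 4 tags per library, and *Lgr6* had 0 tags in every EGFP-Negative library and 0, 4 and 1 in the EGFP-Positive libraries. *Znrf3*, the ligase that R-spondins hold back, had 8, 5 and 5 tags in the EGFP-Negative and 6, 3 and 3 tags in the EGFP-Positive libraries. *Rnf43* had no value under that symbol and was not analysed here. *Gpc3*, a cell-surface glypican that binds WNT and other ligands, had 126, 108 and 182 tags in the EGFP-Negative and 8, 16 and 40 tags in the EGFP-Positive libraries. It was lower in each EGFP-Positive library, with a log2 fold change of -2.53 (SE 0.316), and -3.30 without EGFP-Positive replicate 3. *Sdc4*, a syndecan that was named after its values were seen and is the most abundant gene of the list, went the other way. It had 526, 642 and 525 tags in the EGFP-Negative and 890, 879 and 597 tags in the EGFP-Positive libraries, which overlapped after scaling. Its log2 fold change of 0.64 (SE 0.199) was short of the 2-fold threshold, with a Benjamini-Hochberg adjusted p of 0.0335 in the edgeR quasi-likelihood test. In this list 0 of 3 tested genes were called higher and 1 lower, and DESeq2 also called 0 higher and 1 lower. All 3, 1 of them with a positive fold change, had an unadjusted p under 0.05. Of all 9334 tested genes, 2490 had an unadjusted p under 0.05, and 3.44% were called higher and 6.37% lower by edgeR.

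Among WNT ligands and their receptors, *Wnt5a*, a ligand that mostly signals without β-catenin, was higher in IL-11+ fibroblasts (log2 fold change 1.54, SE 0.203), as was *Fzd1* (1.45, SE 0.191), and *Fzd4* was lower (-1.44, SE 0.325). Each was called in all 22 alternative analyses, which overlap. Of 13 WNT ligand genes with a value, 3 were tested and 1 was called higher, and 1 of 12 Frizzled, LRP and ROR receptors was called in each direction. Medians of these lists were 0.71 and -0.02. The first is the value of *Wnt4*, which was not called and had its highest count in EGFP-Positive replicate 3. *Wnt2b*, the ligand gene with the most tags, was not called either and went the other way (-0.68, SE 0.276). None of the 4 tested WNT secretion genes was called by edgeR (median 0.36) or by DESeq2. Of these 4, 3 had an unadjusted p under 0.05, 1 of them with a negative and 2 with a positive fold change. Of all 9334 tested genes, 2490 had an unadjusted p under 0.05, and 3.44% were called higher and 6.37% lower by edgeR.

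**Figure D2:**
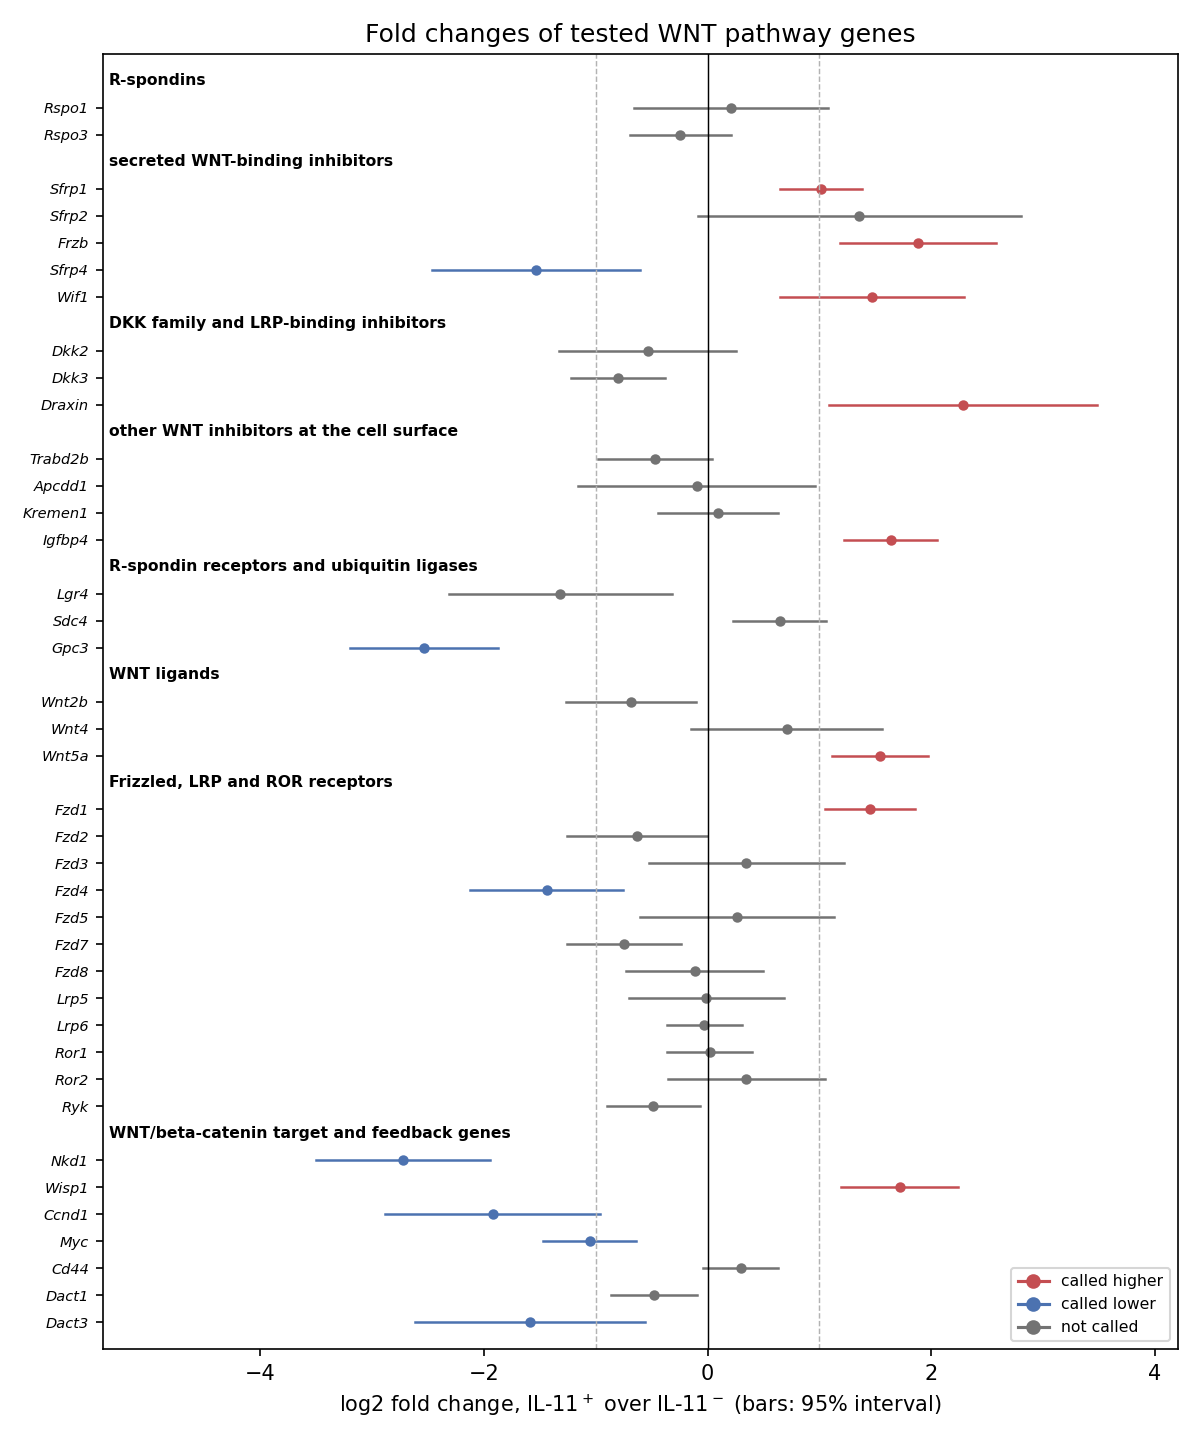
Log2 fold change of IL-11+ over IL-11- fibroblasts for the tested genes of 8 lists, with 95% intervals from edgeR's quasi-likelihood fit as bars and dashed lines at a 2-fold change. Red genes were called higher, blue genes lower and grey genes neither. The intervals are widest for *Sfrp2* and *Draxin*, and the R-spondins lie on both sides of 0.

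Genes of the relay of the pathway were not called, and target and feedback genes were called in both directions. Of 15 tested genes of the β-catenin relay, edgeR called 0, with 2 at an unadjusted p under 0.05, and DESeq2 called 0. Their median log2 fold change was 0.12. Of all 9334 tested genes, 2490 had an unadjusted p under 0.05, and 3.44% were called higher and 6.37% lower by edgeR. Of 7 tested target and feedback genes, 1 was called higher and 4 lower, with a median of -1.06. Of the 4, *Nkd1*, *Ccnd1* and *Dact3* reached 10 tags in the EGFP-Negative libraries only, so they entered the test through the group where they were high, and the count and the median rest on them. *Nkd1*, a feedback inhibitor of the pathway, had 30, 31 and 37 tags in the EGFP-Negative and 3, 4 and 6 tags in the EGFP-Positive libraries. This is a log2 fold change of -2.72 (SE 0.372, Benjamini-Hochberg adjusted p = 3.85e-05, edgeR quasi-likelihood test), and the groups did not overlap. The cell-cycle and growth genes *Ccnd1* (-1.92, SE 0.458) and *Myc* (-1.06, SE 0.198) and the Dishevelled-binding *Dact3* (-1.59, SE 0.489) were lower, and many other signals also control *Ccnd1* and *Myc*. *Wisp1*, which encodes a matricellular protein, was higher, with 35, 28 and 38 tags in the EGFP-Negative and 127, 98 and 70 tags in the EGFP-Positive libraries (1.72, SE 0.248). *Axin2*, a widely used reporter of β-catenin activity, had 5, 12 and 10 tags in the EGFP-Negative and 5, 3 and 6 tags in the EGFP-Positive libraries and did not pass the filter. *Myc* fell short of the fold-change threshold without EGFP-Negative replicate 1 (-0.97), EGFP-Positive replicate 3 (-0.98) or both libraries numbered 3 (-0.95). The call of *Dact3* was lost with DESeq2 (-1.59) and in fits that left out EGFP-Negative replicate 1 (-1.64), EGFP-Negative replicate 3 (-1.29), EGFP-Positive replicate 2 (-1.39), EGFP-Positive replicate 3 (-1.35) or both libraries numbered 3 (-1.05), and that of *Ccnd1* in a fit without EGFP-Negative replicate 2 (-1.60).

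Markers of other stromal cells also differed between the groups, where 3.44% of all tested genes were called higher and 6.37% lower by edgeR. All 8 smooth muscle and myofibroblast markers were called lower in IL-11+ fibroblasts. Their summed level was 2642, 3274 and 4092 normalized CPM in the EGFP-Negative libraries and 105, 177 and 350 in the EGFP-Positive libraries, with *Myh11* the most abundant. All 3 markers of interstitial cells of Cajal were called lower, with sums of 271, 168 and 258 normalized CPM in the EGFP-Negative and 21.2, 20.3 and 50.5 in the EGFP-Positive libraries. *Ano1* was their most abundant gene, and *Kit* had 0, 0 and 7 tags in the EGFP-Positive libraries. Pericyte markers went both ways. Of 5 tested, 3 were called lower, with *Rgs5* the most abundant by total tags, and 0 were called higher. *Abcc9* and *Kcnj8*, named after their values were seen, had positive log2 fold changes of 0.66 (SE 0.182) and 0.71 (SE 0.227), short of the 2-fold threshold, with adjusted p under 0.05 in the edgeR quasi-likelihood test after Benjamini-Hochberg adjustment. The pericyte list had sums of 2450, 2100 and 1900 in the EGFP-Negative and 936, 783 and 690 in the EGFP-Positive libraries. *Cnn1* of the smooth muscle list, *Notch3* of the pericyte list and *Kit* reached 10 tags in the EGFP-Negative libraries only, so they entered the test through the group where they were high. The 7 mesothelial markers summed to 16, 7 and 33 tags in the EGFP-Negative and 1, 0 and 2 tags in the EGFP-Positive libraries, and *Wt1* had the most. The part of these cell types in the differences of *Sfrp4*, *Dkk3*, *Gpc3* and *Lgr4* was not tested.

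Markers of fibroblast subsets differed as well, where 3.44% of all tested genes were called higher and 6.37% lower by edgeR. Of 9 markers of CD81-positive trophocytes and adventitial fibroblasts, 5 were called lower and 1, the BMP antagonist gene *Grem1*, was called higher, where DESeq2 called 3 lower and 1 higher. Their summed level was 8927, 9775 and 10180 normalized CPM in the EGFP-Negative and 7268, 8451 and 6839 in the EGFP-Positive libraries, and *C3* was the most abundant. The adventitial marker *Pi16*, named after its values were seen, had 41, 74 and 135 tags in the EGFP-Negative and 7, 6 and 42 tags in the EGFP-Positive libraries. The groups overlapped for *Pi16*, and EGFP-Positive replicate 3 was the highest EGFP-Positive library, as for *Sfrp4*, *Gpc3* and *Sfrp2*. Of 6 tested markers of PDGFRA-high telocytes, the subepithelial fibroblasts near the top of crypts, 4 were called higher and 0 lower. Their summed level was 547, 566 and 384 in the EGFP-Negative and 2690, 2264 and 1823 in the EGFP-Positive libraries, and *Nrg1* was the most abundant. The defining marker *Foxl1* had 2 to 10 tags per library and was not tested. *F3* (log2 fold change 0.18) and *Sox6* (0.35) were tested and not called. *Pdgfra*, counted here with the fibroblast markers, was not called either (0.22, SE 0.168), and its groups overlapped. The part of these subsets in the higher *Frzb*, *Wif1* and *Sfrp1* was not tested.

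Genes with a pattern over the 6 libraries like that of *Rspo3* and *Sfrp1* are given as a description, since the libraries share their groups and depth. The highest Pearson r of log2 normalized CPM with *Rspo3* belonged to *Hmgb3* (r = 0.99), *Snx27* (r = 0.988) and *Ift46* (r = 0.976), all 3 with a negative log2 fold change. The highest r with *Sfrp1* belonged to *Elovl6* (r = 0.997), *Col27a1* (r = 0.995) and *Erap1* (r = 0.995), all 3 with a positive one. They were picked as the best over all tested genes.

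Tags from the 5′ end can be shared by genes whose transcripts begin alike. None of the 50-nt windows in the first 300 nt of the annotated transcripts of the 10 genes occurs in a transcript of another gene. *Rspo3* overlaps 1 annotated gene on its own strand, and *Rspo1*, *Rspo3* and *Sfrp2* each overlap 1 antisense gene. RefSeq promoters (GRCm38.p6) were found for 5 of the 10 genes, *Rspo1*, *Sfrp2*, *Frzb*, *Wif1* and *Dkk2*, and not for *Sfrp1*, *Sfrp4*, *Dkk3*, *Rspo2* and *Rspo3*. The stretches below hold up to 250 bases before the RefSeq start, ending before any start in GENCODE, and are given for *Wif1* (called higher), *Sfrp2* (higher with the replicate block) and *Dkk2* (not called). They are on the plus strand at chr10:121033754-121033959, chr3:83766071-83766320 and chr3:132085042-132085291. Capitals mark matches on either strand to the TCF/LEF core CTTTGA, to the AP-1 motif TGANTCA, to the GC box GGGCGG or to the TATA box TATAAA, and no matches overlap.
Wif1: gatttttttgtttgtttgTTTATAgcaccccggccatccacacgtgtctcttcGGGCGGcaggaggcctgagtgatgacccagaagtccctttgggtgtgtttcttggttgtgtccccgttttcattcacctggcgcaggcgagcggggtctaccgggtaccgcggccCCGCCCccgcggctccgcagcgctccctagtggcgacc
Sfrp2: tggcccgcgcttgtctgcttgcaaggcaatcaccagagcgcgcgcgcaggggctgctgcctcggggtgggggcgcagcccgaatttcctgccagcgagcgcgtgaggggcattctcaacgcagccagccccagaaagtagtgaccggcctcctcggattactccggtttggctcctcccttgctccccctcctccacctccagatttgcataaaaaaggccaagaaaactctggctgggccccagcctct
Dkk2: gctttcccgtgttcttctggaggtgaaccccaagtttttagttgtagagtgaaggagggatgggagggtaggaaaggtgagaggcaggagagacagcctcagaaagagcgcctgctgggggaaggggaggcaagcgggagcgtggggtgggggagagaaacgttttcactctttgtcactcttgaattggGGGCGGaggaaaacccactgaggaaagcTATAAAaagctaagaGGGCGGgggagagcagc

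*Wif1* held 2 matches to the GC box, 1 on each strand, and 1 match to the TATA box on the minus strand, at positions -232 to -227 from the start. Of 32851 RefSeq promoters, 25.8% hold the GC box and 9.38% the TATA box in the same 206 bases. *Dkk2* held 2 matches to the GC box and 1 to the TATA box, at -32 to -27 from the start, where 32.7% and 12.4% of all promoters hold them in 250 bases. *Sfrp2* held no match to the 4 motifs, and the TCF/LEF and AP-1 motifs, which 13.8% and 6.75% of all promoters hold in 250 bases, were in none of the 3 stretches. A match is a run of letters and was not tested as a binding site.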

How the data were processed

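The tag counts per gene symbol were deposited by the authors without normalization, after trimming with Cutadapt 1.18 and mapping to RefSeq transcripts (mm10) in a single orientation with Bowtie2 2.2.5. Whether molecular identifiers were used, and how tags that map to several genes were handled, is not given in the sources used here. The printed methods exclude genes at 10 tags or above; they were taken here to mean that such genes are kept.

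A gene entered the test with 10 tags or above in 3 or more of the 6 libraries (9334 genes). The test used R 4.3.3 and edgeR 4.0.16 (TMM, glmQLFit, glmQLFTest), and p-values were adjusted by Benjamini-Hochberg over all tested genes. The thresholds for a call, 0.05 and a 2-fold change, are those of the study's methods. The fit was tried on simulated data.

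Same-numbered libraries were taken as pairs for the replicate block. Over 5064 genes whose mean was 30 tags or above, their deviations from group means correlated with r of 0.23, 0.21 and 0.27. Libraries with unlike numbers gave r of -0.21 to -0.01. Deviations within a group sum to 0, so these values are not independent of those for like numbers. This pairing was chosen from the same counts that the block then tested, and the block p-values carry that choice. The methods name 3 mice, and the labels give the replicate numbers without saying that libraries come from separate animals, so p-values measure the spread between these libraries. The floor of 3 tags per library equals 2.56 to 2.93 CPM of the library total, and it covers counting error only because PCR copies are not independent molecules.

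Alternatives were RLE scaling, iterative TMM (with either edgeR test, quasi-likelihood or exact), library size in place of TMM, DESeq2 1.42.0, no filter, a filter on the mean (10 tags), the replicate block, no fold-change threshold, and leaving out each library, with genes filtered on the libraries left or on all 6. Leaving out both libraries numbered 3 was added after seeing the data. The alternative without a fold-change threshold reuses the main fit, so a gene called there stays called. Each library was left out under both filters, so the alternatives overlap and are not independent. The genes named are the 10 genes, the other secreted relatives, up to 5 called genes per direction of each further pathway list, *Lgr4*, *Lgr5*, *Lgr6*, *Rnf43*, *Znrf3* and *Axin2*, marker genes needed to describe a list, and the 3 genes most like *Rspo3* and *Sfrp1* in pattern. Members and lists were chosen with earlier results of these data known. Positions are from GENCODE mouse release 21 (GRCm38), and promoters from RefSeq.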

Additional observations from a re-analysis of the deposited data

How the results depend on the processing

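Counts of calls stayed within 1.5 times of those reported except as follows. Without a fold-change threshold, 638 genes of all tested were higher. Leaving out 1 library gave 251 to 329 higher and 341 to 580 lower genes, where filtering on the 5 libraries left gave 341 to 579 lower genes and filtering on all 6 gave 483 to 580. Of the 10 genes, 1 to 3 were called higher and 0 to 2 lower in these fits. DESeq2 called 0 of them lower and no fold-change threshold gave 2, *Sfrp4* and *Dkk3*. DESeq2 gave *Sfrp4* a Benjamini-Hochberg adjusted p of 0.3, where the other alternatives, all fitted with edgeR, gave 1.87e-05 to 0.119. The cause of these changes was not tested. With the replicate block, 337 genes were higher and 648 lower, and 4 of the 10 genes were higher and 1 lower. Among the tested genes of the 10 and of the pathway lists, the block changed the calls of *Sfrp2* and *Lgr4* and no other. The sign of the fold change turned for *Rspo1* without EGFP-Positive replicate 2 (-0.07, and -0.075 on the genes of the 6-library filter) and for *Sfrp2* without EGFP-Positive replicate 3 (-0.80 with either filter), and the cause was not tested. Leaving out 1 library gave -0.075 to 0.486 for *Rspo1* and -0.80 to 2.46 for *Sfrp2*. Leaving out both libraries numbered 3, chosen after seeing the data, gave 337 higher and 561 lower genes and 2 higher and 1 lower of the 10. Scaling by library size only moved the median log2 fold change of all genes by -0.08. At 1022851 to 1169817 tags per library, genes such as *Rspo2*, *Lgr5* and *Axin2* did not pass the filter.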
